A study of Mus musculus with 6 samples.

Results

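Aire, a transcriptional regulator of the thymic medulla, has been proposed to work with proteins of transcription and DNA repair, and the transcripts of 10 such partners were followed here in medullary thymic epithelial cells with and without Aire. The members were Prkdc, Xrcc5, Xrcc6, Parp1, Top1, Crebbp, Ccnt1, Cdk9, Hipk2 and Sirt1. Every probe set that the platform annotation assigned to 1 of these genes alone was taken, which gave 11 probe sets for 10 genes, of 12422 probe sets and 8251 named genes in all. Each gene had 1 probe set except Xrcc5, which had 2, and 0 probe sets named a member beside another gene.

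The partners belong to a few connected machines. The DNA-dependent protein kinase, made of the catalytic subunit Prkdc and the Ku proteins Xrcc5 and Xrcc6, binds broken DNA ends, while Parp1 senses breaks and Top1 relaxes the coiling of DNA by cutting and resealing a strand. The acetyltransferase Crebbp and the elongation kinase formed by Ccnt1 and Cdk9 act on chromatin and on paused RNA polymerase II, and the kinase Hipk2 and the deacetylase Sirt1 modify other regulators and have both been proposed to modify Aire itself. All of these genes work in many cell types and are not markers of the thymic medulla.

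The groups were 3 pools of wild-type B6/129 F2 mice and 3 pools of B6/129 F2 mice with both copies of Aire disrupted, with 1 array per pool. Per pool the thymi of 5 mice, males and females aged 3 to 5 weeks, were joined, so 15 mice stood behind each genotype. Cells were sorted as CD45-, G8.8+, CDR1int and B7.1hi, that is, without a blood cell marker, with an epithelial antibody and with a high level of the costimulatory molecule B7.1, and their total RNA was amplified in 2 rounds with T7 polymerase. The labels name no cell type to which the disruption was limited, and the exons affected are not given. The comparison asked whether the transcript levels of the proposed partners differ when Aire is missing.

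The arrays had median deposited signals of 7.5 to 9.1. For beta-actin the 3' signal was 95.8 times the 5' signal on wild-type array 2 and 4.38 to 13.8 times on the others, a sign of 3' bias that was higher in wild type within each pair of arrays of the same number. Values below are normalized signals, listed in the order of arrays 1, 2 and 3. Aire itself gave 59.9, 96.4 and 138 in wild type against 202, 297 and 211 in Aire-deficient, with no overlap. The log2 difference, Aire-deficient minus wild type, was 1.33 ± 0.35 (SE), with a 95% interval of 0.56 to 2.10 (limma adjusted p = 0.0918). The signal of Aire was thus higher, not lower, in the cells labelled Aire-deficient, and this probe set does not check the labels. Of 10 medullary epithelial markers on the array 7 lay above the dim limit on all 6 arrays, but the keratins Krt5 and Krt14 lay below it on all 6. The summed normalized signal of the 10 was 2569 to 2601 in wild type and 2821 to 2886 in Aire-deficient, most of it from H2-Aa, and 542 to 710 and 490 to 555 without that gene. Epcam, the epithelial surface protein that G8.8 binds, measured 234, 251 and 130.5 in wild type against 102, 79.8 and 86.9 without Aire, with no overlap (limma adjusted p = 0.118). Other markers of this list went the other way, also with no overlap. By geometric mean, Relb measured 46.3 and 67.2, Tnfrsf11a 2.99 and 6.99, and H2-Aa 1981 and 2331. H2-Aa had the highest signal on each Aire-deficient array, so quantile normalization gave it the same value, 2331, on all 3. As deposited it measured 1686, 2086 and 1775 in wild type against 2385, 2816 and 2753 in Aire-deficient. The wild-type signals of Tnfrsf11a lay below the dim limit. The genotypes overlapped for the rest of the 10, and no tested marker of the list passed the limma test. The dim limit is the pooled 40th percentile of normalized signal, 5.53 arbitrary units. Of 6 granulocyte markers 4 (Ly6g, S100a8, S100a9 and Camp) passed the limma test and were lower in Aire-deficient cells, where 1.73% of all tested probe sets passed. The summed signals were 237 to 775 in wild type and 59.5 to 90.2 in Aire-deficient. For dendritic cells and macrophages the sums were 252 to 384 and 207 to 227. In that list Cd14 was lower (148 and 45.9, limma adjusted p = 0.064) and Cd68 higher (6.85 and 21.4, 0.067) by geometric mean, and no tested marker passed. No tested marker passed among those of cortical epithelium, B cells, fibroblasts, endothelium, erythroid cells and blood cells in general (Ptprc). Among these, the genotypes did not overlap for Ptprc (geometric means 5.83 in wild type and 8.62 in Aire-deficient), Pax5 (2.95 and 13.3), Ly75 (37.9 and 66.8) and Alas2 (8.56 and 20.1). Col1a1 did not overlap either and went the other way (28.5 and 12.6). The 12 markers of thymocytes and T cells had sums of 82.1 to 156 and 87 to 177. Of these, Cd3d, Cd3e, Cd3g, Ptcra and Rag2 lay above the dim limit on fewer than 3 arrays and were not tested. The tested ones did not pass, and they overlapped between genotypes except Rag1 (geometric means 9.76 and 18.7, limma adjusted p = 0.351). Whether the markers of other cell types were read from such cells in the sort or from the sorted epithelial cells was not tested. Their part in the members' values was not tested either.

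Promoter sequences for the members were taken from RefSeq (GRCm38.p6), which gave 10 entries for 9 of the members, among them 2 start sites of Hipk2. They are given as a description, since promoters were not measured. In the 250 bases before the start, the members' entries held a median of 26.5 CpG dinucleotides, against 6 over all 32851 entries. The median GC content was 64.4% and 52.4%. Of the members' entries 8 of 10, or 80%, had an observed-to-expected CpG ratio of at least 0.6 with at least 50% GC, as did 31% of all entries. The motif GGGCGG, searched on both strands, was in 8 of 10 entries and in 32.7% of all. CCAAT was in 2 of 10 and in 33.9% of all, and TATAAA was in 0 of 10 and in 12.4% of all. GGGCGG holds a CpG itself, so its share and the CpG counts are linked, and a match is not shown to be a working site. The upstream 250 bases of Parp1, Top1 and Crebbp are printed, with CpG dinucleotides in capitals. These are the 3 tested members whose difference kept its sign under every alternative fitted to these same arrays. For Top1 the log2 difference came as near to 0 as -0.00091.
Parp1, chr1:180568641-180568890, plus strand: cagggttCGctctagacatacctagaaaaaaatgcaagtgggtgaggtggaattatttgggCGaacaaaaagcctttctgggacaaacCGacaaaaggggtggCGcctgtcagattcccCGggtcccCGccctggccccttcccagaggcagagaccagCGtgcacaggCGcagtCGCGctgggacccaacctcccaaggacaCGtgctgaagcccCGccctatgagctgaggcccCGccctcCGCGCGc
Top1, chr2:160645647-160645896, plus strand: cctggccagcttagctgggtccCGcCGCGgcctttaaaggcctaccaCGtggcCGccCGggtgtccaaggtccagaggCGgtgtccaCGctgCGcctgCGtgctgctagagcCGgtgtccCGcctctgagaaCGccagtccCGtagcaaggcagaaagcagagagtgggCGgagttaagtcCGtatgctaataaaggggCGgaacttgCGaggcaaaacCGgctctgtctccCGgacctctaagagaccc
Crebbp, chr16:4213405-4213654, minus strand: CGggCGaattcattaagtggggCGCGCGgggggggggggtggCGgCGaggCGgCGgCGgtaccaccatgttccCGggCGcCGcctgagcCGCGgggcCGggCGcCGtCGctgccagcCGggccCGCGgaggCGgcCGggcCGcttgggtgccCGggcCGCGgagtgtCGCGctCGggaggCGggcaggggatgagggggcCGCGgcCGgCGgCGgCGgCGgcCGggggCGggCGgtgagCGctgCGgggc
These 3 stretches held 16, 20 and 44 CpG dinucleotides, and the lowest count among the members' entries was 1, at 1 of the start sites of Hipk2, whereas the other start site of Hipk2 held 43. Xrcc5 had 5.

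No member passed the test for a difference between the genotypes. Of the 11 probe sets 7 (for 7 genes) lay above the dim limit on at least 3 of 6 arrays and were tested, and 0 of these 7 had a Benjamini-Hochberg adjusted p under 0.05 in limma, where 1.73% of all 7768 tested probe sets did. At an unadjusted p under 0.05 the count was 0 of 7, against 14.3% of all. The wild-type and Aire-deficient arrays overlapped for all 7, whereas 20.5% of all tested probe sets did not overlap. The fitted log2 difference, Aire-deficient minus wild type, lay above 0 for 2 members and below 0 for 5, with a median of -0.03 beside 0.05 over all tested probe sets. All 7 differences were under 2-fold in size, as were 86.9% of all. No test of the list was made, and 7 probe sets are few for such shares. The 95% interval lay within 2-fold in either direction for 3 of the 7 members, Prkdc, Top1 and Cdk9, and for 23% of all, so that for the other tested members a change of 2-fold was not excluded by these arrays. With the replicate number as a block, which raised the calls over all probe sets from 107 lower and 27 higher to 262 lower and 150 higher, the count of members called was still 0. In bulk RNA of sorted cells, fewer cells of a type and less RNA per cell cannot be told apart.

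**Figure D1:**
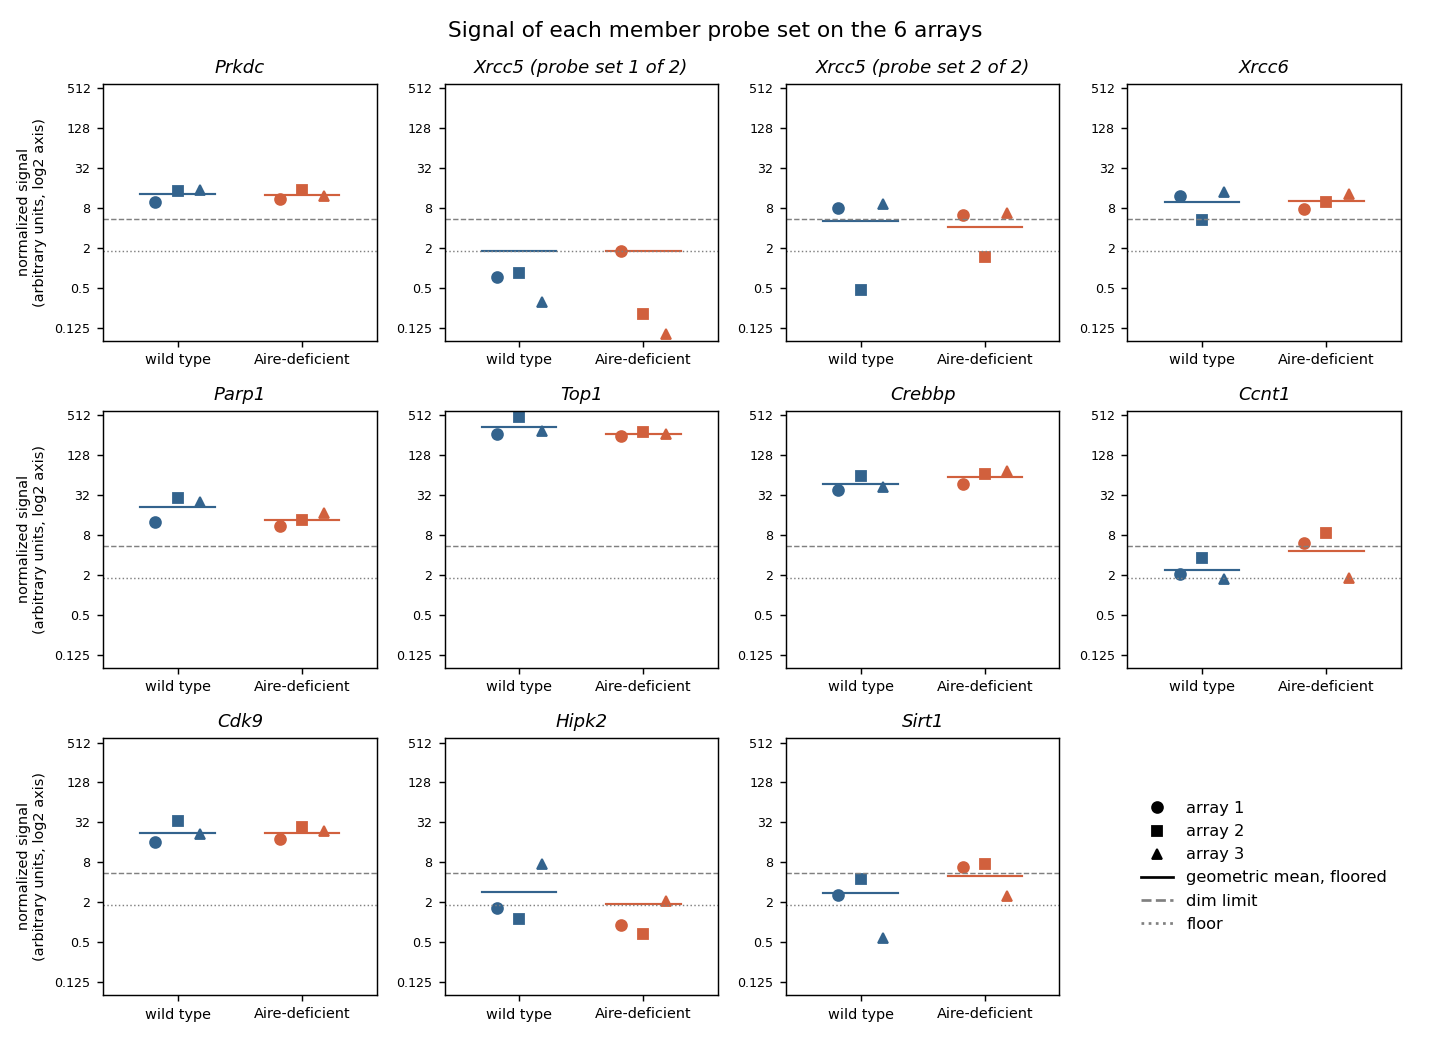
Normalized signal of the 11 member probe sets on each array (arbitrary units, log2 axis), wild type in blue and Aire-deficient in orange, with the symbol giving the array number. Bars are geometric means over 3 arrays after raising values to the floor of 1.8 (dotted); the dashed line is the dim limit of 5.53, and the genotypes overlap in every panel.

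The catalytic subunit of the DNA-dependent protein kinase was measured on all arrays. Prkdc gave 9.69, 14.6 and 14.8 in wild type, against 10.9, 14.9 and 12.2 without Aire. Array 1 was the lowest in both genotypes, and the ranges nearly coincided. The geometric means were 12.8 (SD 0.35 on the log2 scale, n = 3) and 12.6 (SD 0.23, n = 3), and the log2 difference was -0.03 ± 0.34 (SE), with a 95% interval of -0.78 to 0.73 (limma adjusted p = 0.982).

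The Ku subunits, which form the ring that threads onto a DNA end, were dimmer and more scattered. Xrcc6, the smaller subunit, gave 12.3, 5.33 and 14.1 in wild type against 7.83, 9.98 and 13 without Aire. Wild-type array 2 was the lowest of the 6 and the only one under the dim limit. The geometric means were 9.73 (SD 0.76, n = 3) and 10.1 (SD 0.37, n = 3), with a log2 difference of 0.05 ± 0.45 and an interval of -0.94 to 1.04 (limma adjusted p = 0.975). Without wild-type array 2 the difference was -0.39 (adjusted p = 0.736).

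Xrcc5, the larger Ku subunit, was read by a pair of probe sets. The tested one gave 8.08, 0.47 and 9.15 in wild type against 6.2, 1.47 and 6.6 without Aire. Both arrays numbered 2 fell under the floor, while the other 4 lay above the dim limit. The log2 difference was -0.28 ± 0.79 with an interval of -2.02 to 1.45, the widest of the 7 (limma adjusted p = 0.907), and the SDs were 1.31 in wild type and 1.06 in Aire-deficient (n = 3 each). Without wild-type array 2 the difference was -1.04 (adjusted p = 0.592), and without Aire-deficient array 2 it was 0.32 (adjusted p = 0.925). The second probe set, whose name marks a design with fewer usable probes, lay between 0.1 and 1.8 on the 6 arrays, so that every array stood at or under the floor and no difference could be measured. The readings of both probe sets could therefore not be compared.

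Parp1, which adds chains of ADP-ribose to proteins at DNA breaks, had the largest difference in size among the tested members. Its signals were 12.6, 29.1 and 25 in wild type against 11, 13.4 and 17 without Aire. Wild-type array 1 lay inside the Aire-deficient range, and wild-type arrays 2 and 3 lay above it. The geometric means were 20.9 (SD 0.64, n = 3) and 13.6 (SD 0.32, n = 3), a log2 difference of -0.62 ± 0.39 with an interval of -1.48 to 0.23 (limma unadjusted p = 0.138, adjusted p = 0.512). The signal was lower in Aire-deficient cells in 3 of 3 pairs of arrays with the same number, by log2 values of -0.20, -1.12 and -0.55, a pattern (lower in all pairs) seen for 20.2% of all tested probe sets. Without wild-type array 1 the difference was -1.0 (unadjusted p = 0.0201, adjusted p = 0.247), and without wild-type array 2 it was -0.39 (adjusted p = 0.751). With a term for the beta-actin ratio of each array it was -0.22 (adjusted p = 0.864). That ratio was by far the highest on wild-type array 2 and was higher in wild type within each pair. The fit with this term and the fit without wild-type array 2 are therefore not separate checks. The name of the probe set marks a design that allows binding to related sequences, so it may not report on Parp1 alone.

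Top1, the topoisomerase that cuts a single strand, gave a signal above at least 97.8% of the probe sets on every array. It measured 270, 485 and 300.3 in wild type against 252, 288 and 266 without Aire. Wild-type array 2 stood above the rest, and the other 5 arrays lay between 252 and 300.3. The geometric means were 340.1 (SD 0.45, n = 3) and 268 (SD 0.10, n = 3), a log2 difference of -0.34 ± 0.29 with an interval of -0.97 to 0.29 (limma adjusted p = 0.638). Without wild-type array 2 the difference was -0.08 (adjusted p = 0.923). The scaling moved it as well, since the difference was -0.0023 on the values as deposited (adjusted p = 0.999), where the median of all probe sets was 0.17.

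The transcriptional coactivators and kinases differed in how well they were measured. Crebbp, an acetyltransferase also known as CBP, gave 38.2, 62.2 and 42.5 in wild type against 46.4, 65.8 and 73.9 without Aire. Array 1 was the lowest in both genotypes, and wild-type array 2 lay within the Aire-deficient range, while wild-type arrays 1 and 3 lay below it. The geometric means were 46.6 (SD 0.37, n = 3) and 60.9 (SD 0.35, n = 3), a log2 difference of 0.39 ± 0.33 with an interval of -0.34 to 1.11 (limma adjusted p = 0.649). It was higher in Aire-deficient cells in 3 of 3 same-number pairs, by 0.28, 0.08 and 0.80, as were 22.2% of all tested probe sets. Without wild-type array 2 the difference was 0.60 (adjusted p = 0.466), and with the term for the beta-actin ratio it was 0.68 (unadjusted p = 0.0397, adjusted p = 0.332). As for Parp1, these fits are not separate checks. The probe set name marks a design that may be shared by related sequences.

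Cdk9, the kinase that releases paused RNA polymerase II, gave 16, 33 and 21.4 in wild type against 17.7, 26.9 and 23.6 without Aire. In both genotypes array 1 was the lowest and array 2 the highest. The geometric means were both 22.4 (SD 0.53 and 0.31, n = 3 each), and the log2 difference was -0.003 ± 0.36 with an interval of -0.80 to 0.79 (limma adjusted p = 0.998). Its cyclin Ccnt1 gave 2.08, 3.6 and 1.73 in wild type against 6.02, 8.62 and 1.78 without Aire. Aire-deficient arrays 1 and 2 were the 2 arrays above the dim limit, so Ccnt1 failed the filter and was not tested. With no filter on dim signals the log2 difference was 0.93 ± 0.67 (limma adjusted p = 0.68).

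The last 2 regulators were near the floor. Sirt1, a deacetylase that uses NAD, gave 2.55, 4.45 and 0.57 in wild type against 6.87, 7.48 and 2.47 without Aire, with 2 arrays above the dim limit, both Aire-deficient. With no filter the log2 difference was 0.88 ± 0.58 (limma adjusted p = 0.649), and array 3 was the lowest in each genotype. Hipk2, a nuclear kinase known for phosphorylating transcription factors, gave 1.63, 1.12 and 7.5 in wild type against 0.92, 0.67 and 2.08 without Aire. Wild-type array 3 alone lay above the dim limit, and array 3 was the highest in each genotype. With no filter the log2 difference was -0.62 ± 0.61 (limma adjusted p = 0.717).

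**Figure D2:**
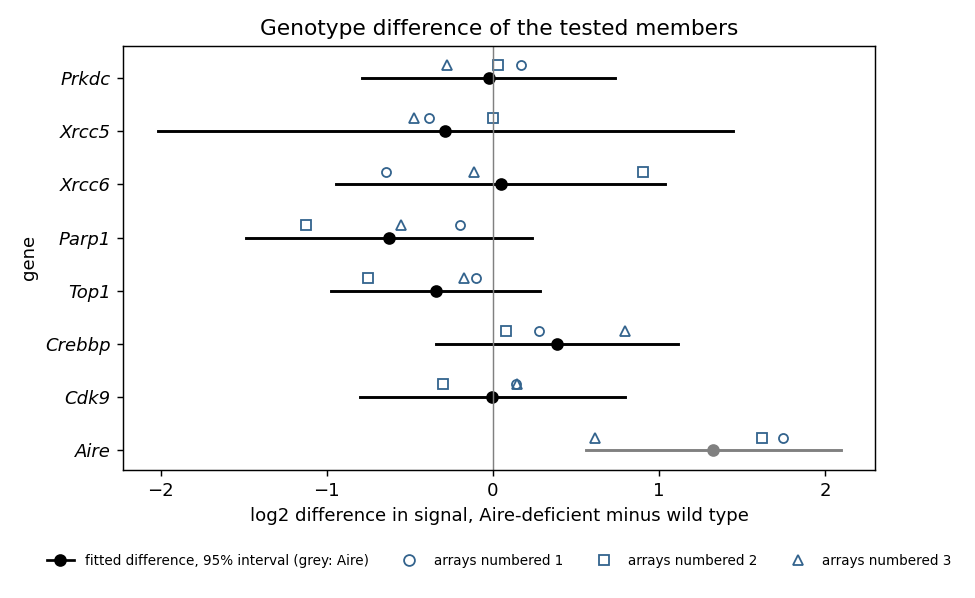
Fitted log2 difference in signal (Aire-deficient minus wild type) of the 7 tested members with its 95% interval, and of Aire in grey for comparison; open symbols give the difference within each pair of arrays of the same number. All 7 member intervals cross 0, and those of Xrcc5 and Xrcc6 are the widest.

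Across the 11 probe sets, 5 lay above the dim limit on all 6 arrays (Prkdc, Parp1, Top1, Crebbp and Cdk9), and 1 lay below it on all 6. In rank within the array, Crebbp lay above 83.1 to 90.8% of the probe sets, Cdk9 above 66.4 to 80.7%, Parp1 above 57.3 to 78.5% and Prkdc above 54 to 64.7%. Probe sets bind with different strength, so these ranks place a signal on its array and do not order the genes by transcript number. The SD over arrays was larger in wild type than in Aire-deficient cells for 7 of 7 tested members, and for 63.9% of all tested probe sets. On normalized signals before the floor, wild-type array 2 was the highest or the lowest of the 6 arrays for 5 of 7 members and for 54.4% of all tested probe sets.

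For Parp1, the member with the smallest unadjusted p, the genes with the most similar pattern over the 6 arrays were Cep350, Nr1h4 and Prkaca. Likeness was the root mean square difference of log2 signals centred on their mean, which was 0.12 for Cep350, 0.12 for Nr1h4 and 0.13 for Prkaca among 6986 probe sets of other genes. Cep350, for example, gave 63.4, 135 and 97.4 in wild type against 51.6, 63.9 and 81.2 without Aire. With 6 arrays and this many candidates, close patterns are found by search alone.

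**Figure D3:**
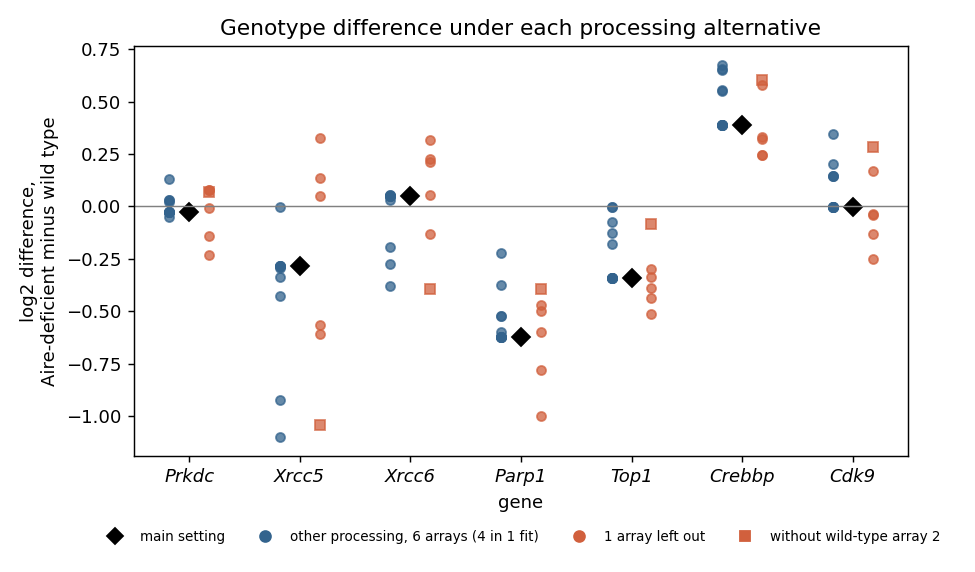
Log2 difference (Aire-deficient minus wild type) of each tested member in the main setting (black diamonds), under other processing (blue) and with 1 array left out (orange, squares for wild-type array 2). Parp1 and Top1 stay below 0 and Crebbp above 0, while Prkdc, Xrcc5, Xrcc6 and Cdk9 fall on both sides of 0.

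The other genes of the same pathways were described from lists of textbook members. Of 132 listed genes 89 were on the array and 75 were tested, and 1 passed the limma test, a share of 1.33% beside 1.71% of the 5950 tested genes. Their median log2 difference was -0.06, against 0.05 over all tested genes, and 15 of 75, or 20%, had no overlap between genotypes, against 21.3%. In the list on repair of breaks through both strands, 1 of 11 tested genes rose and 0 fell (median -0.13). It was Rad50, an ATPase that tethers DNA ends in a complex with Mre11a and Nbn, with 78.3, 54.6 and 126 in wild type against 384, 428 and 319 without Aire. All 3 Aire-deficient arrays lay above all 3 wild-type arrays, and the log2 difference was 2.20 ± 0.34 (limma adjusted p = 0.0107). The call was lost without wild-type array 1 (adjusted p = 0.0557), wild-type array 3 (0.0501) or Aire-deficient array 2 (0.0701), and with no filter on dim signals (0.111), while the log2 difference in these fits was 2.20, 2.52, 2.11 and 2.20. At an unadjusted p under 0.05 in limma the list held 2 of 11, Rad50 and H2ax, where 14.3% of all tested probe sets did so. H2ax, the histone variant phosphorylated around breaks, measured 26.8 and 12.2, with no overlap (adjusted p = 0.221). Polm, a polymerase of end joining, measured 25.8 and 18.1 (0.6).

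None of the 8 tested genes of base excision and nick repair passed the limma test (median 0.11; 0 at an unadjusted p under 0.05). Parg, which removes the ADP-ribose chains that Parp1 makes, measured 11.1 with Aire and 18.4 without it (adjusted p = 0.434), the endonuclease Apex1 17.6 and 11.4 (0.439), and the repair polymerase Polb 9.84 and 13.8 (0.6). Of the 4 other topoisomerases 0 passed, and 0 did so at an unadjusted p under 0.05 (median -0.18). Top3b measured 10.5 and 18.2 (adjusted p = 0.461), Top3a 13.4 and 6.57 (0.525) and Top2b, which cuts both strands, 23.4 and 20.9 (0.878).

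Of 15 tested genes of RNA polymerase II elongation 0 passed the limma test and 2 had an unadjusted p under 0.05 (median -0.07). These 2 were Mllt3, a subunit of elongation complexes, with 18.6 and 8.69 (adjusted p = 0.269), and Mnat1, an assembly factor of the kinase of TFIIH, with 21.4 and 42.1 (0.282). Tcea1, an elongation factor that rescues stalled polymerase, measured 19.2 and 36.7 (0.364). With the replicate number as a block Polr2a, the largest subunit of the polymerase, was lower (log2 difference -1.31, limma adjusted p = 0.0472, or 0.374 without the block), a call that was lost in the block without both arrays numbered 2 (-0.83, adjusted p = 0.146). Its signals were 20.1, 126 and 59.7 in wild type against 11.2, 25.7 and 34.6 without Aire, with overlap between the genotypes.

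Among 9 tested acetyltransferases and coactivators 0 passed and 0 had an unadjusted p under 0.05 in limma (median -0.08). Kat2b, another acetyltransferase that works with Crebbp, measured 55.6 and 33.4 (adjusted p = 0.352), the nuclear receptor coactivator Ncoa1 5.58 and 10.4 (0.373) and Cited2, a protein that binds Crebbp, 75.8 and 43.4 (0.571). Of 9 tested sirtuins, deacetylases and their corepressors 0 passed and 2 had an unadjusted p under 0.05 (median -0.14). The class IIa deacetylase Hdac7 gave 26.7, 45.6 and 22 in wild type against 9.8, 18.5 and 10.2 without Aire, with no overlap (log2 difference -1.28, adjusted p = 0.154, or 0.0278 with the replicate block). In the block without both arrays numbered 2 the difference was -1.27 and the call was lost (limma adjusted p = 0.0602). Hdac5, of the same class, measured 17.9 and 8.3 (adjusted p = 0.234), and Hdac2 52.5 and 69.1 (0.566).

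Of 7 tested kinases and partners around Hipk2 0 passed the limma test, as did 0 of 15 further proposed partners of Aire, and in both lists 0 had an unadjusted p under 0.05. The medians were 0.03 and 0.01. In the former, Dyrk1b, a kinase of a related family, measured 3.35 and 5.86 (adjusted p = 0.631), the nuclear body protein Pml 25 and 18.4 (0.691) and the ubiquitin ligase Siah1a 19.3 and 16 (0.807). In the latter, the cohesin subunit Smc3 measured 5.18 and 10.9 (adjusted p = 0.488), the ATPase Ruvbl1 33.4 and 54 (0.601) and the RNA helicase Ddx5 135 and 167 (0.814). For Ruvbl1 wild-type array 2 gave 12.2, and the other 5 arrays gave 50.7 to 59.7.

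**Figure D4:**
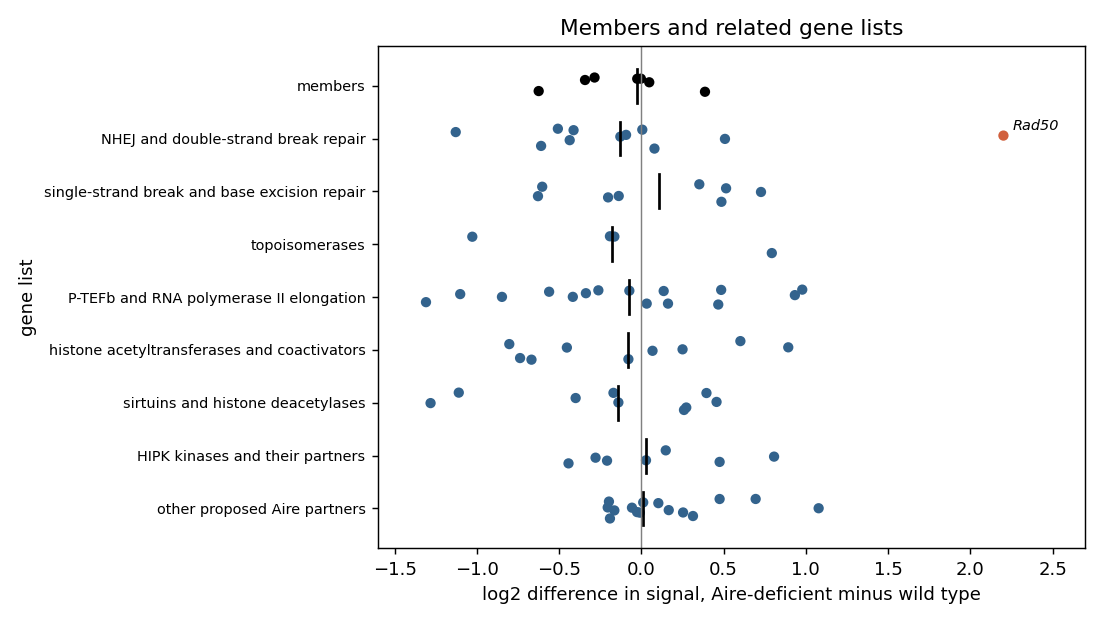
Log2 difference (Aire-deficient minus wild type) of the 7 tested members (black) and of the tested genes in each related list (blue), with the list median as a bar. Rad50 (orange) is the gene past the adjusted threshold of 0.05, at 2.20, and the members lie between -0.62 and 0.39.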

How the data were processed

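The deposited values are signal intensity per probe set on a linear scale. Per the labels, the RNA went through 2 rounds of T7 amplification. Software, background correction, scaling: not given in the sources used here. The table held 12488 probe sets, and its 66 controls were dropped. The platform annotation gave 1 gene for 10833, several for 396 and none for 1193.

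Quantile normalization was applied, a floor was set at 1.8 (20th percentile of all normalized values), and log2 values were fitted with limma 3.58.1 in R 4.3.3 (eBayes with a variance trend, 2-sided, Benjamini-Hochberg over 7768 tested probe sets, threshold 0.05). Probe sets had to exceed 5.53, the 40th percentile, on 3 or more of the 6 arrays to be tested. List counts use 1 probe set per gene, that with the highest mean. Figures used matplotlib 3.10.9. Fold sizes of dim genes are shortened by the floor, and the number of arrays limits the precision. P-values rest on the spread between arrays, 1 per pool, in which differences between pools and those from amplification or hybridization cannot be told apart.

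Named genes were all members, Aire, called genes of the lists, up to 3 per list with the smallest p, and the 3 genes most like the member with the smallest p. Cep350's values, Polr2a, Epcam, Relb, Tnfrsf11a, H2-Aa, the named markers of other cell types and the keratins were named after their values were seen. Members and lists were chosen with earlier results of these data known. As a check of pairing, each array's deviations from its genotype mean were correlated across genotypes: r was 0.37, 0.20 and 0.19 for equal numbers, and -0.25 to 0.07 for unequal ones. On this basis, and with no word in the labels on their meaning, the replicate numbers were used for same-number differences and in the fit with a block; all other SEs, intervals and p-values are from the fit without it. The procedure was also run on simulated data with independent noise on each array. Such data lack the shared deviations of same-number arrays, so that run does not measure the power of the comparison made here. Other choices tried were the scaling, the floor, the filter, the variance model, array weights, the block, a term for the 3' to 5' beta-actin ratio, 1 probe set per gene and leaving out each array; the block without both arrays numbered 2 was added after the data were seen.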

Additional observations from a re-analysis of the deposited data

How the results depend on the processing

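The count of members past the threshold was 0 in each of the 18 alternative fits, including the replicate block. Parp1 (-1.0 to -0.22), Top1 (-0.52 to -0.00091, the latter with median scaling) and Crebbp (0.25 to 0.68) kept their sign in all 18. The sign turned, with no member past the threshold, for Prkdc (0.030 on the values as deposited, 0.032 with median scaling, 0.023 with array weights, 0.13 with the term for 3' bias), Cdk9 (0.15, 0.15, 0.20 and 0.34 in the same order) and Xrcc6 (-0.20 with array weights, -0.27 with the term for 3' bias). In the block without both arrays numbered 2 the values were -0.38 for Xrcc6 and 0.15 for Cdk9. With 1 array left out the differences ranged from -0.23 to 0.081 for Prkdc, from -1.04 to 0.32 for Xrcc5, from -0.39 to 0.32 for Xrcc6 and from -0.25 to 0.28 for Cdk9. Among these the turned values were 0.071, 0.081 and 0.078 for Prkdc (without wild-type array 2, wild-type array 3 and Aire-deficient array 1), 0.05, 0.14 and 0.32 for Xrcc5 (without wild-type arrays 1 and 3 and Aire-deficient array 2), -0.39 and -0.13 for Xrcc6 (without wild-type array 2 and Aire-deficient array 3) and 0.28 and 0.17 for Cdk9 (without wild-type array 2 and Aire-deficient array 1). The cause was not tested.

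Over all probe sets, 107 were lower and 27 higher. The counts were 102 and 71 on the values as deposited (59% lower, against 79.9%), 97 and 55 with median scaling (63.8% lower), 10 and 6 with no filter, 40 and 21 with all 6 arrays above the dim limit (65.6% lower), 166 and 72 with array weights (69.7% lower), 262 and 150 with the replicate block (63.6% lower), and 145 and 77 with the block without both arrays numbered 2. Leaving out 1 array gave 2 to 76 lower and 0 to 9 higher, with the lowest without wild-type array 3. Over the related lists, 0 were lower and 1, Rad50, was higher; 0 were higher with no filter, 2 were lower with the replicate block (Polr2a and Hdac7) and 0 in that fit once both arrays numbered 2 were dropped. With 1 array left out, 0 to 1 were higher. The median difference of all probe sets was 0.17 on the values as deposited and with median scaling, against 0.05. The planned comparison between probe sets of 1 member was not run, since no member had 2 probe sets that passed the filter.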
